A study of Homo sapiens with 9 samples.

Results

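The transcripts described here come from 10 genes that report on or restrain the extracellular signal-regulated kinase (ERK) pathway, namely *DUSP4*, *DUSP5*, *DUSP6*, *SPRY1*, *SPRY2*, *SPRY4*, *SPRED1*, *SPRED2*, *ETV4* and *ETV5*. They were taken by name from a table of 60660 genes, and all 10 passed the filter on low counts that left 17794 genes to test. The cells were OVCAR3, a human epithelial ovarian cancer line, grown in medium with bovine serum and insulin. Poly(A) RNA was sequenced from 9 libraries, in 3 groups of 3, named Control, CTCFL-OE and CTCFL-KD. CTCFL (BORIS) is a zinc finger transcription factor and a paralog of CTCF. Control cells carried a LacZ plasmid and CTCFL-OE cells a plasmid with the CTCFL open reading frame, both given as 2 µg in a transient transfection and harvested after 48 h. CTCFL-KD cells came from earlier, separate siRNA experiments and were compared with the same plasmid Control. For them the effects of less CTCFL, of the siRNA transfection and of a separate experiment cannot be told apart. Each library pooled 3 technical replicates of a culture of the whole cell population. In such bulk RNA, fewer cells that express a gene and less RNA per cell cannot be told apart.

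ERK is the last kinase of a cascade that runs from growth factor receptors through RAS, RAF and MEK. Its activation raises the transcription of genes that in turn limit the pathway. The dual-specificity phosphatases encoded by *DUSP4*, *DUSP5* and *DUSP6* remove phosphates from ERK, the first and second in the nucleus and the third in the cytoplasm. The Sprouty proteins (*SPRY1*, *SPRY2*, *SPRY4*) and the related SPRED proteins (*SPRED1*, *SPRED2*) act upstream, between the receptors, RAS and RAF. *ETV4* and *ETV5* encode ETS transcription factors of the PEA3 group, which are induced by receptor tyrosine kinase signaling and carry its transcriptional output. The transcripts of these genes are widely read as a gauge of ERK activity, which was not itself measured here.

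The total counts per library lay between 14332622 and 24490080, and the 10 genes had between 33 and 1197 counts in any library. *CTCFL* itself had 6, 9 and 10 counts in the Control libraries, 36, 34 and 72 under overexpression and 0, 1 and 0 under knockdown. Among 11 epithelial and ovarian markers, *PAX8*, *MUC16*, *EPCAM*, *KRT8* and *KRT18* each had at least 3762 counts in every library. *WT1*, of the same list, had between 418 and 1835. Replicate 1 of CTCFL-KD stood apart from its other replicates. With genes split into 5 equal groups by exon length, those of the shortest group were higher in this library than in the other 2 by a median of 0.80 on the log2 scale, and those of the longest group differed by -0.61. Values without it are given where they matter.

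Compared per exon length in transcripts per 1000000 (TPM), *ETV4* was the most abundant of the 10 genes in Control, at 35.8 ± 1.34 TPM (SD, n = 3). It was followed by *DUSP5* at 30.9 ± 1.39 TPM and *SPRED2* at 26.6 ± 2.19 TPM (SD, n = 3). *SPRED1* (10.9 TPM) and *SPRY1* (9.28 TPM) held the middle. The ranges of neighbours in this order did not overlap down to *DUSP6* (7.04 TPM), whereas *DUSP6* overlapped with *ETV5* (6.12 TPM) and *ETV5* with *SPRY2* (5.15 TPM). *DUSP4* (3.71 TPM) and *SPRY4* (3.25 TPM) were the lowest and overlapped each other. In CTCFL-OE, *DUSP5* and *SPRED2* stood above *ETV4*, which had 14.7 ± 2.08 TPM (SD, n = 3). In CTCFL-KD, *DUSP5* led with 13.1 ± 2.96 TPM (SD, n = 3), and the ranges of all neighbours in the order overlapped. The genes that follow are compared between groups by counts per 1000000 (CPM), scaled by the TMM method, which does not correct for length.

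**Figure D1:**
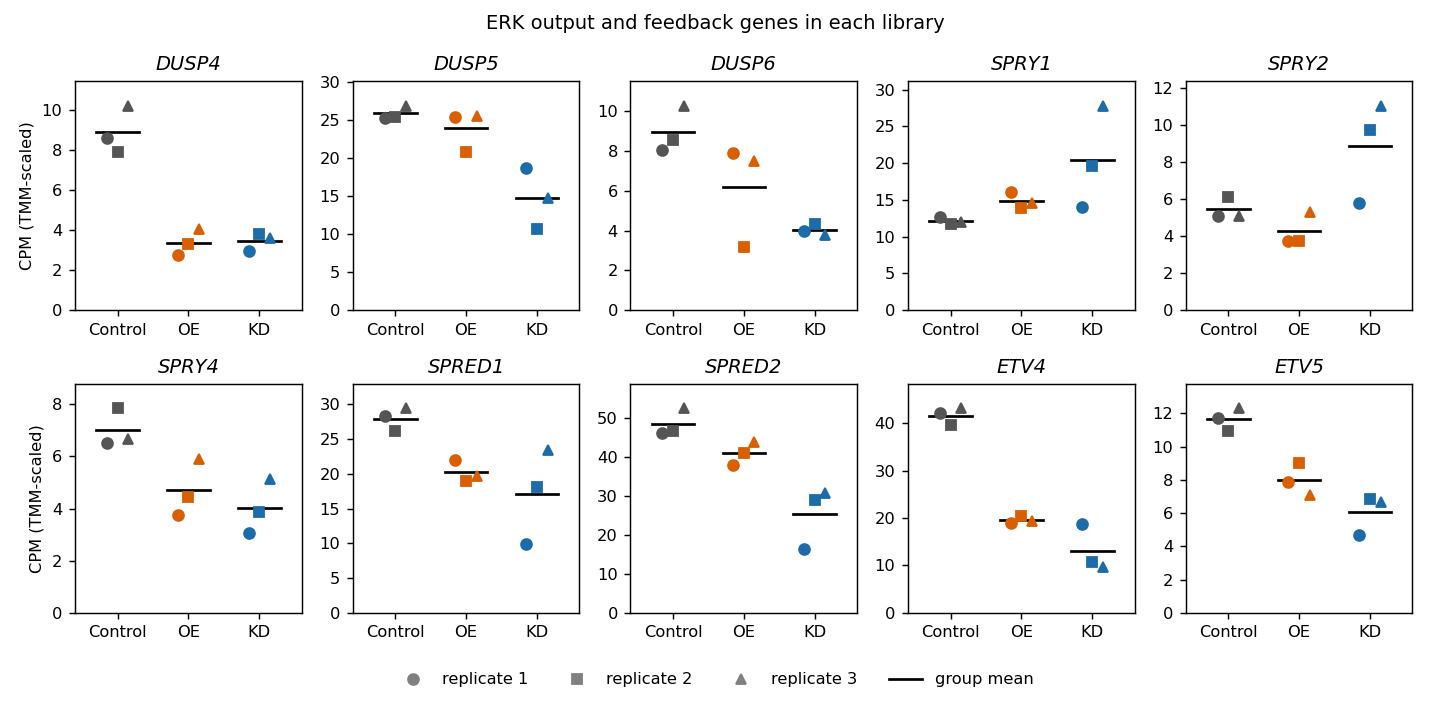
TMM-scaled counts per 1000000 (CPM, vertical axes from 0) of the 10 genes in each of the 9 libraries, with marker shapes for the replicate number and a black line for the mean of each group of 3. All 3 CTCFL-KD libraries lie below all 3 Control libraries in 8 of the genes, and above them in *SPRY1*.

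With CTCFL overexpressed, *DUSP4* and *ETV4* fell, and the other 8 genes did not pass the test. The libraries of CTCFL-OE lay below every Control library in 7 of the 10 genes and above every Control library in *SPRY1*. Of all genes tested, 20.8% lay below in this way and 16.3% above. The 2 genes that fell compare with 1.16% of all genes tested that fell at the adjusted p of 0.1, and 3.15% that changed in either direction. Both also had a log2 fold change beyond 1 in size, as did 0.702% of all genes on the lower side, and so were differentially expressed genes (DEGs) by the thresholds of the study. DESeq2 and edgeR limited to the 2 groups each called 5 of the 10 genes, and 3773 and 3450 of all genes. The count of 2 also moved with single libraries, to 0 without Control replicate 3, to 1 without Control replicate 1 or 2 or CTCFL-OE replicate 2 or 3, and to 5 without CTCFL-KD replicate 1, which enters through the shared estimate of the spread. The calls over all genes moved as well in those fits, from 561 to between 44 and 117 where the count dropped and to 5040 where it rose. The median log2 fold change of the 10 genes was -0.50, and that of all genes was -0.01.

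With CTCFL knocked down, 7 of the 10 genes fell (*DUSP4*, *DUSP5*, *DUSP6*, *SPRY4*, *SPRED2*, *ETV4* and *ETV5*), 2 rose (*SPRY1* and *SPRY2*), and *SPRED1* did not pass the test. *SPRY2* overlapped with Control and was called at an edgeR adjusted p of 0.0499, which became 0.0532 with the replicate number as a block. At the same adjusted p of 0.05, 16.8% of all genes tested fell and 21.4% rose, together 38.2%. *ETV4*, *DUSP4* and *DUSP6* were DEGs, against 7.94% of all genes that were DEGs on the lower side. There were 5 DEGs with length and GC offsets, 5 without CTCFL-KD replicate 2, 6 without CTCFL-KD replicate 3 and 2 without Control replicate 3. Without replicate 1 of CTCFL-KD, all 10 genes passed, and without Control replicates 1, 2 and 3, only 6, 6 and 5 did. The calls over all genes shifted alongside, from 6800 to 9170 without that CTCFL-KD library and to 4910, 4903 and 4738 without the Controls. The fits limited to CTCFL-KD and Control called 7 of the 10 genes, with 7250 of all genes called by DESeq2 and 6330 by edgeR. The median log2 fold change of the 10 genes was -0.87, whereas that of all genes was 0.08. In 8 of the 10 genes the highest CTCFL-KD value was under the lowest Control value, and in 1 the groups were apart the other way, against 27.6% and 28.7% of all genes tested. Both comparisons use the same Control libraries, so their values are not independent of each other.

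Set directly against each other, CTCFL-KD and CTCFL-OE differed in 3 of the 10 genes. *SPRY2* was higher in CTCFL-KD, and *DUSP5* and *SPRED2* were lower. Of all genes tested, 26.8% differed at the adjusted p of 0.05, 15.3% being higher and 11.5% lower. The fits limited to these groups called 1 of the 10 genes, and of the 9 fits that left out 1 library 5 called 1, 3 called 2 and the one without CTCFL-KD replicate 1 called 5. For the other 7 genes, a difference between the conditions did not pass the test, which does not show that they were equal.

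**Figure D2:**
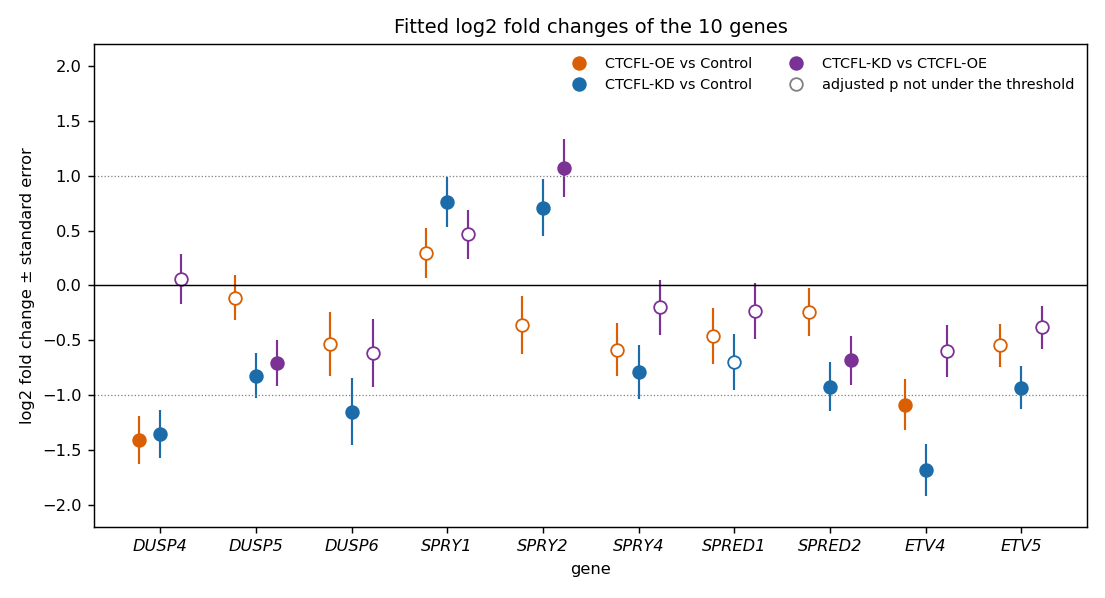
Fitted log2 fold changes (vertical axis) of the 10 genes in CTCFL-OE against Control, CTCFL-KD against Control and CTCFL-KD against CTCFL-OE, with standard errors as bars and open circles where the adjusted p did not pass. *DUSP4* and *ETV4* are filled and below -1 in both comparisons with Control, while *SPRY1* and *SPRY2* are the filled values above 0 in CTCFL-KD.

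Of *DUSP4*, *DUSP5* and *DUSP6*, *DUSP4* (ENSG00000120875.9, chromosome 8 of GRCh38, 29333064 to 29350684, minus strand) changed the most in CTCFL-OE. It had 8.61, 7.89 and 10.2 CPM in the Control libraries, 2.74, 3.29 and 4.06 CPM under overexpression and 2.98, 3.81 and 3.62 CPM under knockdown. Both altered conditions lay below Control with no overlap, and they overlapped each other. *DUSP4* was 2.66-fold lower in CTCFL-OE (log2 fold change -1.41, standard error 0.22, edgeR adjusted p = 0.0148) and 2.55-fold lower in CTCFL-KD (-1.35, standard error 0.22, edgeR adjusted p = 0.000841). Between CTCFL-KD and CTCFL-OE the log2 difference was 0.06 (standard error 0.23, edgeR adjusted p = 0.867). The call in CTCFL-OE was lost without Control replicate 3, where the log2 fold change was -1.30 and the edgeR adjusted p 0.12.

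*DUSP6* (ENSG00000139318.8, chromosome 12, 89347235 to 89352501, minus strand), the cytoplasmic ERK phosphatase, had 8.06, 8.55 and 10.3 CPM in Control, compared with 7.89, 3.19 and 7.497 CPM under overexpression and 3.97, 4.34 and 3.78 CPM under knockdown. In CTCFL-OE, replicate 2 was low and the other 2 libraries lay just under Control. Its log2 fold change was -0.53 (standard error 0.29, edgeR adjusted p = 0.37), and -0.22 without replicate 2. In CTCFL-KD the 3 libraries were close together and all below Control, a 2.22-fold decrease (log2 fold change -1.15, standard error 0.31, edgeR adjusted p = 0.0129). Without Control replicate 3 the edgeR adjusted p was 0.0502. An unnamed long noncoding RNA gene lies on the opposite strand of *DUSP6*, and the strand setting of the counting is not given in the sources used here, so its reads cannot be told apart from those of *DUSP6*.

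*DUSP5* (ENSG00000138166.6, chromosome 10, 110497907 to 110511533, plus strand), the nuclear phosphatase specific to ERK, differed between the 2 conditions. It had 25.3, 25.4 and 26.9 CPM in Control, compared with 25.4, 20.7 and 25.6 CPM under overexpression and 18.7, 10.6 and 14.7 CPM under knockdown. The CTCFL-OE libraries overlapped with Control, while all CTCFL-KD libraries were lower than both. The log2 fold change was -0.11 in CTCFL-OE (standard error 0.21, edgeR adjusted p = 0.803) and -0.82 in CTCFL-KD (standard error 0.21, edgeR adjusted p = 0.0105). CTCFL-KD was 1.63-fold lower than CTCFL-OE (log2 difference -0.71, standard error 0.21, edgeR adjusted p = 0.0286), a call that was lost in 6 of the 9 fits that left out 1 library and in the 2 fits limited to these groups. With 2535 exon bases, *DUSP5* is the shortest of the 10 genes, and it was highest in the CTCFL-KD library that favoured short genes. Without that library its log2 fold change in CTCFL-KD was -1.02.

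The ETS factors both declined in CTCFL-KD. *ETV4* (ENSG00000175832.13, chromosome 17, 43527844 to 43579620, minus strand) had 42.1, 39.6 and 43.2 CPM in Control, compared with 18.9, 20.4 and 19.4 CPM under overexpression and 18.8, 10.7 and 9.59 CPM under knockdown. The groups did not overlap, with Control highest and CTCFL-KD lowest, although the highest CTCFL-KD library lay just under the lowest of CTCFL-OE. *ETV4* was 2.13-fold lower in CTCFL-OE (log2 fold change -1.09, standard error 0.23, edgeR adjusted p = 0.0547) and 3.22-fold lower in CTCFL-KD (-1.69, standard error 0.24, edgeR adjusted p = 0.000388). The step from CTCFL-OE to CTCFL-KD, a log2 difference of -0.60 (standard error 0.24), did not pass (edgeR adjusted p = 0.0817), although without replicate 1 of CTCFL-KD it was -0.95 with an edgeR adjusted p of 0.000174, and it also passed under 4 of the 11 other settings. The call in CTCFL-OE was lost when any one Control library, CTCFL-OE replicate 2 or CTCFL-OE replicate 3 was left out, with log2 fold changes that stayed between -1.13 and -1.06 over the 9 fits and edgeR adjusted p of up to 0.254. The *DHX8* gene overlaps *ETV4* on the opposite strand.

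*ETV5* (ENSG00000244405.8, chromosome 3, 186046314 to 186110318, minus strand), the other PEA3 factor, had 11.7, 10.96 and 12.3 CPM in Control, compared with 7.84, 8.99 and 7.07 CPM under overexpression and 4.69, 6.84 and 6.68 CPM under knockdown. Here too the groups did not overlap, in the same order as for *ETV4*. The log2 fold change was -0.55 in CTCFL-OE (standard error 0.19, edgeR adjusted p = 0.18), which did not pass, and -0.93 in CTCFL-KD (standard error 0.20, edgeR adjusted p = 0.00394), a 1.91-fold decrease. In CTCFL-OE, *ETV5* passed without replicate 1 of CTCFL-KD (edgeR adjusted p = 0.0253) and in 3 of the 11 other settings. *DGKG* on the same strand and *ETV5-AS1* on the opposite strand overlap *ETV5*.

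The Sprouty genes did not move together in CTCFL-KD, where *SPRY4* fell, *SPRY1* rose and *SPRY2* was called higher by a margin that most alternatives ended. The bases upstream of the annotated starts of *SPRY1* and *SPRY2*, which were called higher, and of *DUSP6*, which fell, are shown for comparison. Each is the 250 bases before the first listed RefSeq transcription start in GRCh38.p14, written 5′ to 3′ along the gene's own strand. There was 1 start listed for *DUSP6*, 2 for *SPRY1* and 3 for *SPRY2*, and only the first of each gene was searched. The windows are chr4:123396545-123396794 (plus strand) for *SPRY1*, chr13:80341127-80341376 (minus strand) for *SPRY2* and chr12:89352502-89352751 (minus strand) for *DUSP6*. Capitals mark matches, on either strand, to TGACG, the core of the cAMP response element, or to AGGNGGC. The latter allows any base at N and is looser than the core of the CTCF motif.
SPRY1: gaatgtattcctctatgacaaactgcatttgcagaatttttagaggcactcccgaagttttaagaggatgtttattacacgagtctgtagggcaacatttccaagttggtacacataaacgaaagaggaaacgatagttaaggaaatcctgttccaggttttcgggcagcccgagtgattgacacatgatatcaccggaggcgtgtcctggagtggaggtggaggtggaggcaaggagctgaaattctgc
SPRY2: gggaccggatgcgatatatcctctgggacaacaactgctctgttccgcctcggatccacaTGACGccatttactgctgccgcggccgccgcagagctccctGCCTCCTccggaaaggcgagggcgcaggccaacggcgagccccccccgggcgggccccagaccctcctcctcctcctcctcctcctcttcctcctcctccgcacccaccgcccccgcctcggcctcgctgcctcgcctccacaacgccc
DUSP6: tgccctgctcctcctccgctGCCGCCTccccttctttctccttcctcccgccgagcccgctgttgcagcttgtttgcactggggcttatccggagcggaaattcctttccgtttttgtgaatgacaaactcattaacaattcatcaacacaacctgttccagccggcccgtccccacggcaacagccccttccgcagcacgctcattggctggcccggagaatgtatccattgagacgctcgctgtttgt
The window of *SPRY1* held neither motif, that of *DUSP6* held an AGGNGGC match that starts 230 bases before the transcription start, and that of *SPRY2* held both, at 190 bases for TGACG and 149 bases for AGGNGGC. RefSeq windows matched 6 of the 10 genes, the others being *SPRY4*, *SPRED1* and *SPRED2*. Of these 6, 2 held TGACG (*SPRY2* and *SPRY4*) and 4 held AGGNGGC (*DUSP6*, *SPRY2*, *SPRED1* and *SPRED2*), against 21.7% and 31.2% of 27305 windows of the same length. CCGGAAG, an ETS site found in 8.82% of all windows, and TGANTCA, the AP-1 site found in 6.6%, matched in none of the 6. None of the marked matches overlapped another. In the windows shown, the AGGNGGC matches had C (*DUSP6*) or A (*SPRY2*) at N, so they are not to be read as CTCF sites. These matches describe letters only and do not show binding.

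*SPRY1* (ENSG00000164056.11, chromosome 4, 123396795 to 123403760, plus strand) had 12.7, 11.7 and 12.1 CPM in Control, compared with 16.1, 13.95 and 14.6 CPM under overexpression and 14.1, 19.6 and 27.8 CPM under knockdown. All libraries of both altered groups were above Control, and the CTCFL-KD libraries were spread out. The log2 fold change was 0.29 in CTCFL-OE (standard error 0.23, edgeR adjusted p = 0.522, and 0.0921 on the 2 groups alone) and 0.76 in CTCFL-KD (standard error 0.23, edgeR adjusted p = 0.0229), a 1.69-fold increase. The call was lost without CTCFL-KD replicate 3, where the log2 fold change was 0.47 with an edgeR adjusted p of 0.0993. The call was also lost without Control replicate 1, 2 or 3 (edgeR adjusted p of 0.0651, 0.0861 and 0.0789) and when DESeq2 or edgeR was limited to the 2 groups (adjusted p of 0.0605 and 0.0538).

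*SPRY2* (ENSG00000136158.12, chromosome 13, 80335976 to 80341126, minus strand) had 5.11, 6.14 and 5.12 CPM in Control, compared with 3.74, 3.76 and 5.29 CPM under overexpression and 5.77, 9.75 and 11.1 CPM under knockdown. Its Control range overlapped with both other groups, whereas CTCFL-KD lay above CTCFL-OE throughout. Against Control, the log2 fold change was -0.36 in CTCFL-OE (standard error 0.26, edgeR adjusted p = 0.493). In CTCFL-KD it was 0.71 (standard error 0.26), and the edgeR adjusted p of 0.0499 was just under the threshold. This call was lost under 15 of 20 alternatives, among them the one that blocked on the replicate number (0.66, edgeR adjusted p = 0.0532). Without replicate 1 of CTCFL-KD, which had the lowest of the 3 values, it was 0.93 (edgeR adjusted p = 0.00219). *SPRY2* was 2.10-fold higher in CTCFL-KD than in CTCFL-OE (log2 difference 1.07, standard error 0.26, edgeR adjusted p = 0.0125). Of the 20 alternatives, leaving out CTCFL-OE replicate 2 alone ended that call (log2 difference 0.98, edgeR adjusted p = 0.0574).

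*SPRY4* (ENSG00000187678.10, chromosome 5, 142310427 to 142326455, minus strand) had 6.51, 7.85 and 6.69 CPM in Control, compared with 3.74, 4.44 and 5.90 CPM under overexpression and 3.07, 3.86 and 5.15 CPM under knockdown. Both altered groups were below Control with no overlap. The log2 fold change was -0.59 in CTCFL-OE (standard error 0.24, edgeR adjusted p = 0.243) and -0.79 in CTCFL-KD (standard error 0.25, edgeR adjusted p = 0.0276), a 1.73-fold decrease. In CTCFL-OE it passed without CTCFL-KD replicate 1 (edgeR adjusted p = 0.0659) and by DESeq2 on the 2 groups (adjusted p = 0.0679). The call in CTCFL-KD was lost without Control replicate 1, 2 or 3 or CTCFL-KD replicate 2, with edgeR adjusted p between 0.0557 and 0.0989. *SPRY4-AS1* overlaps the gene on the opposite strand.

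The SPRED genes, whose proteins bind the RAS GTPase-activating protein neurofibromin, both had their lowest values in CTCFL-KD, where *SPRED2* fell and *SPRED1* did not pass the test. *SPRED2* (ENSG00000198369.10, chromosome 2, 65310851 to 65432637, minus strand) had 46.0, 46.5 and 52.5 CPM in Control, compared with 37.9, 40.9 and 43.8 CPM under overexpression and 16.4, 28.9 and 30.8 CPM under knockdown. The groups did not overlap. *SPRED2* fell 1.90-fold in CTCFL-KD (log2 fold change -0.92, standard error 0.22, edgeR adjusted p = 0.00836), while in CTCFL-OE its log2 fold change was -0.24 (standard error 0.22, edgeR adjusted p = 0.593). The log2 difference between CTCFL-KD and CTCFL-OE was -0.68 (standard error 0.22, edgeR adjusted p = 0.0443). It no longer passed in 7 of the 9 fits that left out 1 library, nor in the 2 fits limited to these groups. Without CTCFL-KD replicate 1 it was -0.45 (edgeR adjusted p = 0.0113). A long noncoding RNA gene lies on the same strand within *SPRED2*.

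*SPRED1* (ENSG00000166068.13, chromosome 15, 38252836 to 38357249, plus strand) had 28.2, 26.1 and 29.4 CPM in Control, compared with 22.03, 19.0 and 19.7 CPM under overexpression and 9.92, 18.1 and 23.4 CPM under knockdown. Every library of both altered groups was below Control, yet neither comparison passed. The log2 fold change was -0.46 in CTCFL-OE (standard error 0.26, edgeR adjusted p = 0.37) and -0.70 in CTCFL-KD (standard error 0.26, edgeR adjusted p = 0.0531). With 7750 exon bases, *SPRED1* is the longest of the 10 genes, and its lowest value was that of CTCFL-KD replicate 1. Without this library the log2 fold change in CTCFL-KD was -0.42 (edgeR adjusted p = 0.0247), and with per-library trends on length and GC content removed it was -0.25 (edgeR adjusted p = 0.196). *SPRED1* also passed in CTCFL-KD without replicate 3 (-0.99, edgeR adjusted p = 0.0136), by DESeq2 on all libraries (adjusted p = 0.0374) and with no filter on low counts (edgeR adjusted p = 0.00889). In CTCFL-OE it passed without CTCFL-KD replicate 1 (edgeR adjusted p = 0.034) and by DESeq2 and edgeR on the 2 groups (adjusted p = 0.0169 and 0.05).

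**Figure D3:**
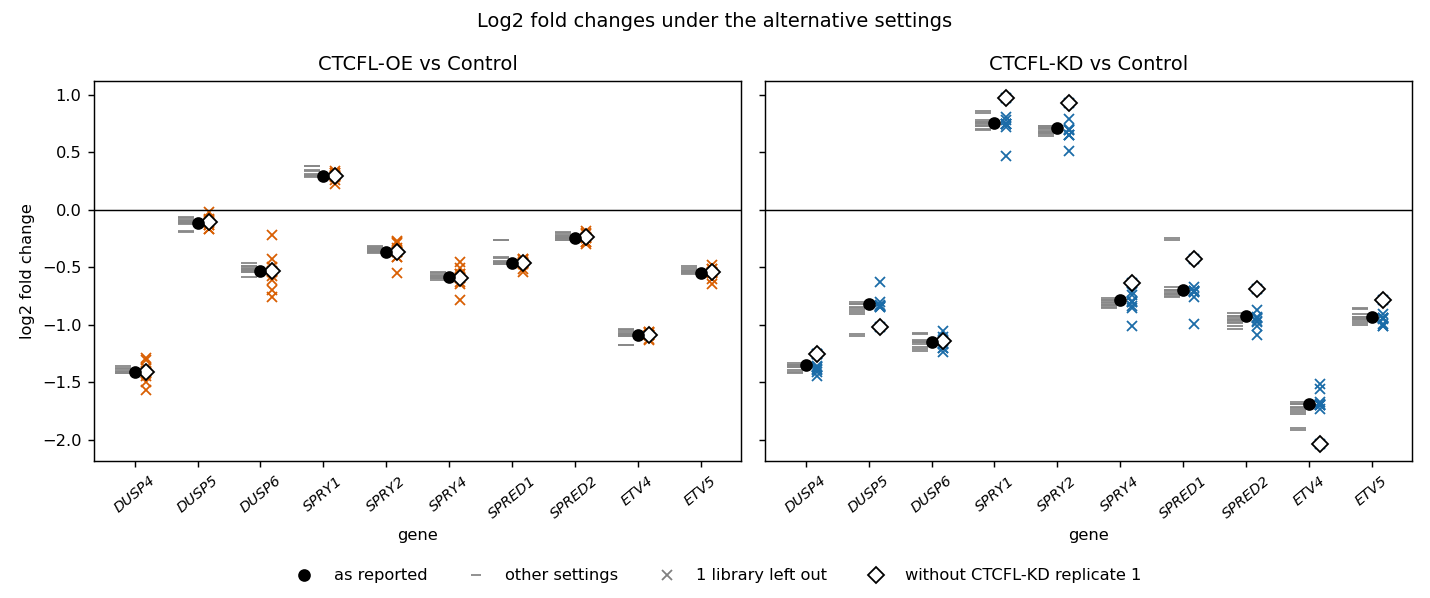
Log2 fold changes (vertical axes) of the 10 genes against Control as reported (black dots), under 11 other settings (grey dashes) and with 1 library left out (crosses), with the values without CTCFL-KD replicate 1 as open diamonds. No value against Control crosses 0, and *SPRED1* moves the furthest in CTCFL-KD, to -0.25.

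Other genes of the pathway were listed by role, and their counts are to be read against the shares of all genes called, 16.8% lower and 21.4% higher in CTCFL-KD and 3.15% in either direction in CTCFL-OE. Of 15 other genes induced by ERK signaling, 6 fell in CTCFL-KD, 1 rose and 8 did not pass, with a list median log2 fold change of -0.31. *FOSL1*, an AP-1 subunit, fell from 11.6 ± 1.64 to 0.75 ± 0.21 CPM (SD, n = 3 each), a log2 fold change of -3.99 (standard error 0.35, edgeR adjusted p = 2.08e-05). *CCND1*, which encodes cyclin D1, fell from 484 ± 21.3 CPM in Control to 287 ± 15.3 CPM under overexpression and 99.7 ± 10.5 CPM under knockdown (SD, n = 3 each). Its log2 fold changes were -0.75 and -2.28 (edgeR adjusted p = 0.0633 and 9.27e-06). *IER3*, an immediate early gene, fell in CTCFL-OE (-1.05, edgeR adjusted p = 0.0795) and, from 57.7 to 12.2 CPM, in CTCFL-KD (-2.25, edgeR adjusted p = 0.000142). These 2 were the genes of this list that passed in CTCFL-OE. None of the list did without Control replicate 1, 2 or 3 or CTCFL-OE replicate 2, 1 did without CTCFL-KD replicate 2, and 5 did without CTCFL-KD replicate 1 or on the 2 groups alone. The ephrin receptor gene *EPHA4* was the one that rose in CTCFL-KD, with a log2 fold change of 0.91 (edgeR adjusted p = 0.0194).

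Of 17 related DUSP, SPRY, SPRED and ETS genes, 16 were tested, and in CTCFL-KD 6 fell, none rose and 10 did not pass. The share called, 37.5%, was near the 38.2% of all genes called in either direction. All of these calls were decreases, and 16.8% of all genes fell. The largest decreases were in *ETS1*, the founding member of the ETS family (log2 fold change -2.79, standard error 0.28, edgeR adjusted p = 4.67e-05), and in *DUSP10*, a phosphatase of the stress-activated kinases JNK and p38, with a value of -1.61 (edgeR adjusted p = 0.00124). In CTCFL-OE *DUSP2*, a nuclear phosphatase, rose with 6.34, 15.1 and 23.3 CPM against 3.56, 2.84 and 3.60 CPM in Control (log2 fold change 2.16, standard error 0.39, edgeR adjusted p = 0.029). In CTCFL-KD it fell (-1.29, edgeR adjusted p = 0.039). It was the only gene of this list to pass in CTCFL-OE, where none passed without any one Control library, CTCFL-OE replicate 2 or CTCFL-OE replicate 3, and 3 passed without CTCFL-KD replicate 1 or on the 2 groups alone.

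In the cascade from RAS to the kinases downstream of ERK, 8 of 21 genes fell in CTCFL-KD and none rose. The share called, 38.1%, was again near the 38.2% of all genes called in either direction. All of these calls were decreases, and 16.8% of all genes fell. The lowest were *RPS6KA3*, which encodes the ERK substrate RSK2 (log2 fold change -1.30, standard error 0.34, edgeR adjusted p = 0.0115), and *PTPN11*, which encodes the phosphatase SHP2 (-1.23, standard error 0.28, edgeR adjusted p = 0.0064). Both had their lowest values in CTCFL-KD replicate 1, at 14.6 and 72.7 CPM against 36.2 CPM or more and 166 CPM or more in the other 2. In CTCFL-OE 0 cascade genes passed in the edgeR fit of all 9 libraries and 1 had an unadjusted p under 0.05. DESeq2 on the same libraries called 1, edgeR and DESeq2 on the 2 groups called 5 and 7, and edgeR without CTCFL-OE replicate 1 or CTCFL-KD replicate 1 called 3 and 9.

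Of 24 listed receptors and ligands, 21 were tested, and in CTCFL-KD 13 rose, 5 fell and 3 did not pass, with a list median log2 fold change of 1.02. *FGF9*, a fibroblast growth factor, rose from 0.94 ± 0.29 to 11.1 ± 1.90 CPM (SD, n = 3 each; log2 fold change 3.58, edgeR adjusted p = 1.36e-05), while *FGF2* fell from 6.58 ± 0.45 to 0.86 ± 0.29 CPM (-2.87, edgeR adjusted p = 0.000129). *NRG1*, a ligand of ERBB3, fell as well (-1.38, edgeR adjusted p = 0.000171). *VEGFA* rose in CTCFL-KD (2.29, edgeR adjusted p = 0.000147) and in CTCFL-OE (1.13, edgeR adjusted p = 0.0725). In CTCFL-OE 3 genes rose, 1 fell and 17 did not pass. These 4 calls became 0 without any one Control library, 1 and 2 without CTCFL-OE replicates 2 and 3, 10 without CTCFL-OE replicate 1 or CTCFL-KD replicate 1, and 9 and 11 by edgeR and DESeq2 on the 2 groups. *INSR*, the insulin receptor gene, had a log2 fold change of 1.10 there (edgeR adjusted p = 0.0389), and *IGF1* one of -2.29 (edgeR adjusted p = 0.055). In CTCFL-KD *IGF1* rose (1.30, edgeR adjusted p = 0.0241), as did *INSR* (0.96, edgeR adjusted p = 0.00507).

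**Figure D4:**
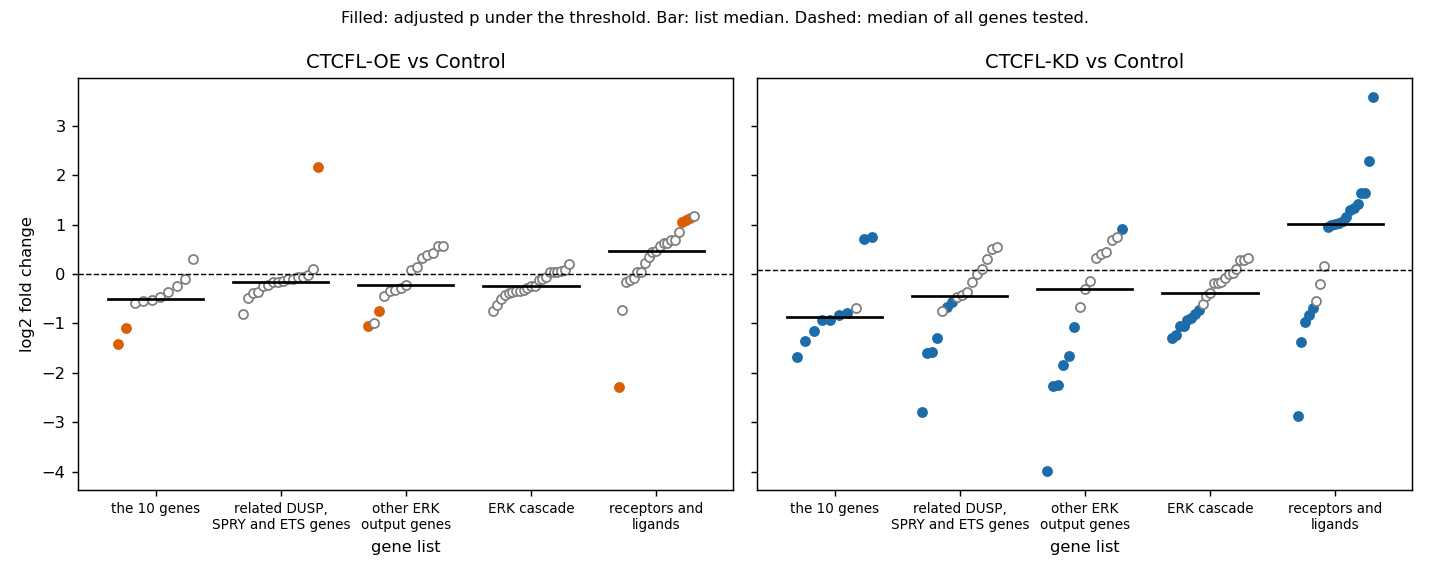
Log2 fold changes (vertical axis) in CTCFL-OE and CTCFL-KD against Control of the tested genes of each list, filled where the adjusted p passed, with a bar at the list median and a dashed line at the median of all genes. In CTCFL-KD the median of the 10 genes is -0.87 and that of receptors and ligands is 1.02.

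Markers of other cells were low but not constant. The 11 fibroblast markers together had between 28.7 and 34.2 CPM in Control, compared with 25.6 and 45.0 CPM under overexpression and 38.2 and 43.7 CPM under knockdown. Of the 5 that were tested, *COL1A2* and *POSTN* rose in CTCFL-KD, and *COL1A2* had 0 counts in the 3 Control libraries and 156, 239 and 247 in CTCFL-KD. *COL1A1*, with most of the summed level in Control, *ACTA2* and *FAP* did not pass, with log2 fold changes of -0.36, -0.24 and -0.05. The 6 leukocyte markers together had at most 0.456 CPM in Control and between 2.08 and 3.52 CPM in CTCFL-KD, of which *CD14* made up most, and *MS4A1* was at 0 in all 9 libraries. The 3 endothelial markers summed to between 6.79 and 7.06 CPM in Control, compared with 8.23 and 10.3 CPM under overexpression and 4.49 and 5.29 CPM under knockdown. Of the 11 epithelial and ovarian markers, 8 rose and 2 (*WT1* and *KRT7*) fell in CTCFL-KD. The summed level of the 11 went from between 6182 and 6277 CPM in Control to between 10260 and 17928 CPM. The share of mitochondrial counts was between 6.16% and 6.52% in Control, 7.40% and 14.9% under overexpression and 7.80% and 11.8% under knockdown. The part of these shifts in the changes of the 10 genes was not tested.

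For 9 of the 10 genes, the gene with the most similar pattern over the 9 libraries was sought among 15326 others, by the root mean square difference in log2 CPM relative to Control. *SPRED1* was matched by *EVI5*, at 0.064 log2 units. *ETV5* had the pseudogene *DYNC1I2P1* at 0.105, *DUSP5* had *LINC00857* at 0.117 and *SPRY1* had *TMEM128* at 0.129. *SPRY2* (*CTSO*, 0.157), *SPRY4* (*MGLL*, 0.159), *DUSP6* (*RASL11A*, 0.205), *ETV4* (*KRT23*, 0.207) and *DUSP4* (*CAST*, 0.224) had no closer match.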

How the data were processed

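The authors deposited whole-number read counts per gene, as 1 file per library and as a matrix with the same values. Per the labels, reads were trimmed with Trimmomatic and counted with featureCounts on GRCh38. The labels also list kallisto, whereas the study's methods name STAR as the aligner. The annotation release and the strand setting are not given in the sources used here. Gene names were taken from GENCODE v44, which named 60419 of 60660 identifiers. The members and gene lists were chosen with earlier results of these data known.

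Counts of all 9 libraries were fitted by group with edgeR 4.0.16 in R 4.3.3 (filterByExpr, TMM, robust quasi-likelihood) and adjusted by the Benjamini-Hochberg method over 17794 genes. Genes were called at an adjusted p under 0.1 for CTCFL-OE and 0.05 for the other comparisons. The standard error was derived from the fold change and its F statistic. Genes outside the members were named as the 2 highest and 2 lowest called log2 fold changes of each list whose groups did not overlap and with a mean of at least 1 CPM in a group. TPM used union exon lengths. The most similar gene of *SPRED2* is not reported here. DESeq2 1.42.0 was an alternative. The fit was tested on simulated data.

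Replicate numbers are labels of separate cultures. The deviations of same-numbered CTCFL-KD and Control libraries from their group means correlated over 11622 genes (Pearson's r of 0.384, 0.221 and 0.265, and 0.208, 0.126 and 0.195 with length and GC offsets). The CTCFL-KD cells came from separate experiments, so these correlations do not show that the samples were paired. Blocking on the replicate number was an alternative only. For same-numbered CTCFL-OE and Control libraries, Pearson's r was -0.045, 0.225 and -0.05. The block covered all 9 libraries, so in those fits CTCFL-OE was also blocked by replicate number.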

Additional observations from a re-analysis of the deposited data

How the results depend on the processing

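Each fold change of the 10 genes was recomputed under 11 settings and with each of the 9 libraries left out, 200 values per comparison. No value against Control reversed. In CTCFL-OE 184 kept their side of the threshold, 10 gained and 6 lost a call, and in CTCFL-KD 170 kept it, 4 gained and 26 lost one. Between CTCFL-KD and CTCFL-OE, 169 kept it, 7 gained and 18 lost one and 6 reversed. There 2 uncalled genes changed sign, *DUSP4* (-0.0044 with no filter, and between -0.075 and 0.20 with a library left out, negative without CTCFL-OE replicate 1 or CTCFL-KD replicate 2) and *SPRED1* (0.017 with length and GC offsets, 0.0049 with these and the replicate block, and between -0.52 and 0.037 with a library left out, positive without CTCFL-KD replicate 1).

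The number of the 10 genes called in CTCFL-OE was 5 by DESeq2 or edgeR on the 2 groups and 0 to 5 with a library left out. In CTCFL-KD it was 7 by either fit on the 2 groups and 5 to 10 with a library left out. Between the conditions it was 1 by either fit on the 2 groups and 1 to 5 with a library left out. DEGs in CTCFL-KD numbered 5 with the offsets, with or without the block. With a library left out there were 2 to 6, in CTCFL-OE 0 to 2 and between the conditions 0 to 1. With the replicate block, *SPRY2* in CTCFL-KD had an adjusted p of 0.0532, and no other call of the 10 genes against Control changed.

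For the lists in CTCFL-OE, DESeq2 and edgeR on the 2 groups called 3 related family genes each (2 with no filter), 5 other ERK-induced genes each, 7 and 5 cascade genes, and 11 and 9 receptors and ligands. DESeq2 on all 9 libraries called 1 cascade gene and 7 receptors and ligands, as did the fit with no filter and the fit with the block and offsets, and the offsets alone called 1 cascade gene. With a library left out, CTCFL-OE gave 0 to 3, 0 to 5, 0 to 9 and 0 to 10 genes of the 4 lists, CTCFL-KD 4 to 7, 6 to 9, 8 to 13 and 12 to 17, and CTCFL-KD against CTCFL-OE 3 to 8, 5 to 7, 1 to 8 and 10 to 12. The offsets raised the related family genes called from 6 to 10 in CTCFL-KD and from 4 to 7 between the conditions, where edgeR on the 2 groups called 1 cascade gene. Of all genes, 561 were called in CTCFL-OE, against 1374 by DESeq2 on all libraries, 3773 and 3450 by DESeq2 and edgeR on the 2 groups, 1517 with no filter, 1401 with the offsets, 1205 with these and the block, and 44 to 5040 with a library left out. Between the conditions 4771 were called, and 2668 to 6098 under the other settings.

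The causes of these changes were not tested. Leaving out a library leaves 2 in its group and fewer degrees of freedom. The 10 genes had 33 to 1197 counts per library, and this depth and 3 libraries per group limit the size of difference that is called.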
